A study of Mus musculus with 8 samples.

Results

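The distal ends of the mouse autosomes were examined as the 10 kb rows of a genome-wide table of HA signal that start within 2 Mb of the largest end coordinate listed for their chromosome, on chromosomes 1 to 19 of the mouse build mm9. The rule used position only and no measured value. It took 3634 of the 232039 autosomal 10 kb rows, which is 1.57%, and left 228405 other rows. Of these, 3631 distal rows (36.31 Mb) and 226708 other rows had a mean of at least 0.5 RPM (reads scaled to the library total) over the 4 libraries and were used for the values below. Each chromosome gave between 184 and 196 distal rows. The 3 distal rows under that level were chr3:158890001-158900000, chr4:155290001-155300000 and chr12:120900001-120910000.

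Mouse chromosomes carry their centromere at one tip, so the largest coordinate of a chromosome lies at the end far from the centromere, next to the distal telomere. Subtelomeric sequence of this kind is often rich in genes and GC bases, and it can also hold tandem gene families and duplicated blocks. Histone H3.1 is placed on DNA mainly behind the replication fork by the chaperone CAF-1. Histone H3.3 is also placed outside replication, by HIRA at genes and regulatory elements and by ATRX with DAXX at telomeric repeats and other repetitive heterochromatin. The telomeric repeats themselves are not part of the assembled rows, so the values describe the assembled sequence beside the telomere. K36M is a lysine-to-methionine change in the H3 tail that blocks methylation at that position and inhibits H3K36 methyltransferases, and it was found in chondroblastoma, a cartilage tumour.

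The cells were C3H10T1/2, a mesenchymal progenitor line derived from C3H mouse embryos, at passages 10 to 15. Separate lines stably expressed a FLAG-HA-tagged histone and are named after it: H3.1WT and H3.3WT carry the wild-type (WT) variants, and H3.1K36M and H3.3K36M the mutant ones. All lines keep their untagged endogenous H3, the tag is read with an HA antibody, and the labels do not say whether a line is a clone or a pool. Each line gave 1 HA library, so differences between lines have no replicate check and no test was made. The libraries held 35487141 (H3.1WT), 41705735 (H3.1K36M), 46749609 (H3.3WT) and 38783917 reads (H3.3K36M), recovered from the steps of the deposited values. That depth put a median of 132, 158, 165 and 134 reads on a distal row in the same order. Wherever 4 values are listed without names below, they follow that order, both H3.1 libraries before both H3.3 libraries and WT before K36M. Intervals are exact (Clopper-Pearson) 95% intervals on these reads and cover counting error only. Input libraries were not used here, so HA signal, copy number, mappability and the background of a library cannot be told apart.

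Both H3.3 libraries had more signal at the distal ends than over the other autosomal rows, while the H3.1 libraries were close to their genome level there. The median H3.3WT signal was 3.55 RPM in distal rows and 2.86 RPM in other rows, a 1.24-fold difference. For H3.3K36M the medians were 3.47 and 3.03 RPM, 1.15-fold. For H3.1WT they were 3.74 and 3.65 RPM, 1.02-fold, and for H3.1K36M 3.81 and 3.66 RPM, 1.04-fold. The distal ends held 1.58% of the autosomal reads of H3.1WT, 1.62% of H3.1K36M, 1.80% of H3.3WT and 1.82% of H3.3K36M. The first 2 Mb with signal at the centromere end of the same chromosomes had medians of 3.82 and 3.81 RPM in the WT and K36M H3.1 libraries and 3.27 and 3.39 RPM in the WT and K36M H3.3 libraries, so the H3.3 level there lay between the distal and the genome level. Without chromosomes 11 and 15 the log2 difference between distal and other medians went from 0.31 to 0.20 in H3.3WT and from 0.20 to 0.12 in H3.3K36M. Among rows of at least median total signal it was only 0.06 in H3.3WT and 0.15 in H3.3K36M, so the order of the H3.3 libraries turned. The size of the difference thus depends on the filter. That filter picks rows by a mean that includes the H3.3 values compared, so it cannot say which rows carry the difference.

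These medians hide a wide spread among chromosomes. On the log2 scale the distal minus other difference was 0.31 for H3.3WT with an SD of 0.69 over the 19 chromosomes, each set against the rest of itself. The same difference was 0.20 with an SD of 0.47 for H3.3K36M, 0.03 with an SD of 0.29 for H3.1WT and 0.06 with an SD of 0.32 for H3.1K36M. In every library the spread between chromosomes was therefore larger than the difference itself. The distal end was above the rest of its own chromosome on 13 of 19 chromosomes in H3.3WT, on 12 in H3.3K36M, on 9 in H3.1K36M and on 8 in H3.1WT. From the 10th to the 90th percentile the distal rows ran from 1.40 to 9.42 RPM in H3.3WT, a 6.74-fold range, and from 1.99 to 9.09 RPM in H3.3K36M, a 4.56-fold range. H3.1WT was narrower, from 2.49 to 5.91 RPM, as was H3.1K36M, from 2.51 to 6.27 RPM.

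The ends of chromosomes 11, 15 and 7 stood highest above the rest of their chromosome in H3.3WT. The chromosome 11 end had medians of 6.88 and 7.29 RPM in the WT and K36M H3.1 libraries and 10.1 and 8.79 RPM in the WT and K36M H3.3 libraries, all above the medians of the other 18 ends. Against the rest of chromosome 11 these were 1.94-, 2.02-, 2.49- and 2.50-fold, so the H3.1 libraries were raised there as well. The chromosome 15 end had 5.77, 5.89, 9.32 and 7.08 RPM in the same order, and it was 1.42-fold above its rest in both H3.1 libraries, 2.26-fold in H3.3WT and 2.12-fold in H3.3K36M. The chromosome 7 end had 4.05, 4.55, 5.48 and 5.09 RPM, which was 1.34-, 1.47-, 2.41- and 2.03-fold its rest. High H3.1 signal thus accompanied high H3.3 signal at these ends. When each chromosome was cut into 2 Mb windows, the chromosome 11 end ranked 1 of 59 in both H3.1 libraries and 2 of 59 in both H3.3 libraries. The chromosome 15 end ranked 2 of 50 in H3.1WT and 3 of 50 in both H3.3 libraries.

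Other ends were poor in H3.3, named so here by their H3.3WT median. In H3.3WT the lowest distal medians were 1.46 RPM on chromosome 3, 1.56 on chromosome 18 and 1.82 on chromosome 16, followed by 1.98 on chromosome 17 and 2.11 on chromosome 10. These ends had 0.618, 0.604, 0.660, 0.622 and 0.601 times the median of the rest of their chromosomes. Chromosome 13, at 0.947 times, was the only other end below its rest in H3.3WT. In H3.3K36M the chromosome 3 end was again the lowest at 2.33 RPM, while the ends of chromosomes 16, 17 and 18 had 2.85, 2.87 and 2.87 RPM. The ends of chromosomes 5 and 14, above their rest in H3.3WT, were lower in H3.3K36M at 2.80 and 2.82 RPM. The chromosome 10 end had 3.08 RPM, so the ends poor in H3.3WT were not all low in H3.3K36M. The H3.3K36M medians of the 19 ends spanned 3.77-fold, against 6.91-fold for H3.3WT. The H3.1 signal of the H3.3-poor ends of chromosomes 10, 16, 17 and 18 was ordinary, between 3.58 and 3.85 RPM in H3.1WT. The chromosome 3 end had 2.72 RPM in each H3.1 library, the lowest H3.1 medians of the 19 ends, so it was low in all 4 libraries.

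**Figure D1:**
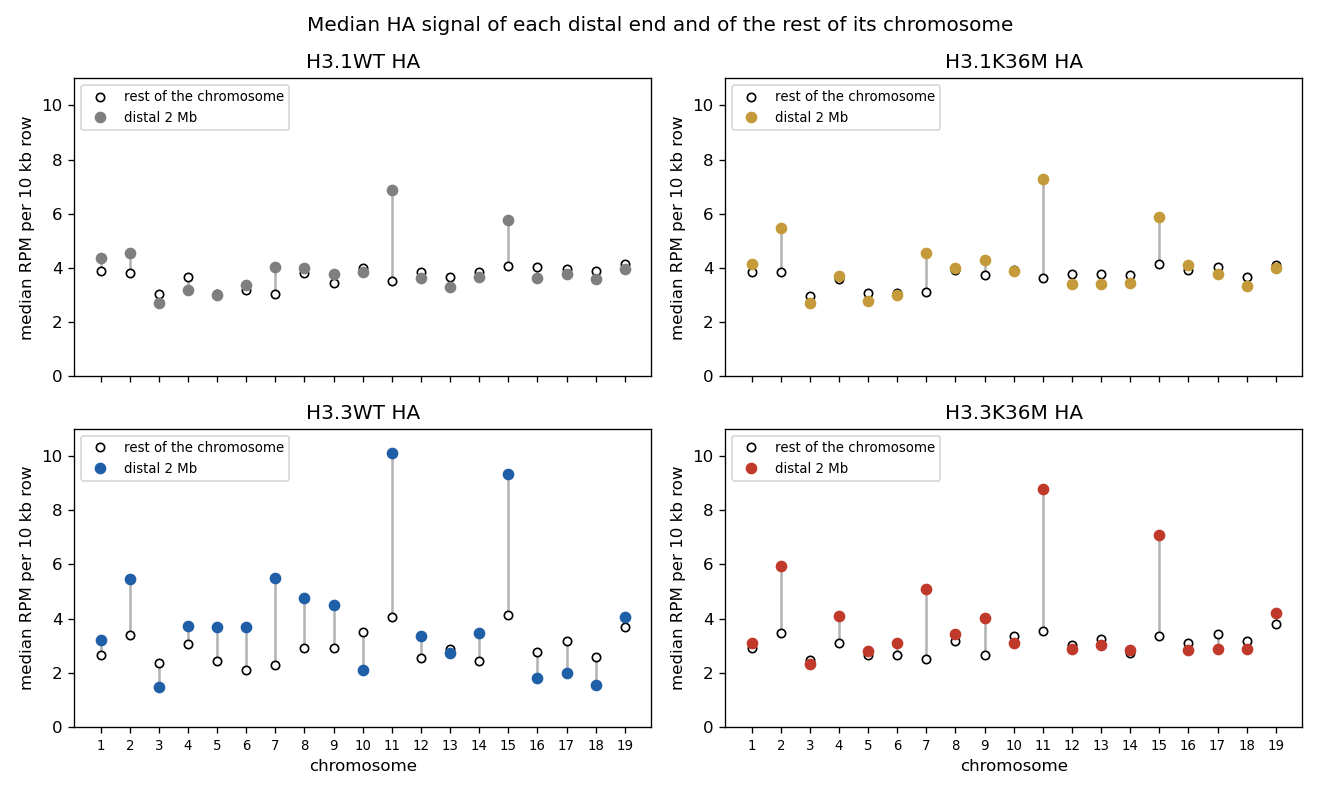
Each panel gives, for 1 HA library, the median RPM per 10 kb row of the distal 2 Mb (filled) and of the rest of the chromosome (open) for chromosomes 1 to 19. Chromosomes 11 and 15 stand out in all 4 libraries, reaching 10.1 and 9.32 RPM in H3.3WT, while the H3.3WT ends of chromosomes 3, 10, 16, 17 and 18 lie below their open circles.

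A spread of this size was also found elsewhere on the chromosomes. Over the 19 ends the SD of the log2 window median was 0.77 in H3.3WT, against 0.69 over the 1174 other 2 Mb windows. The values were 0.52 and 0.45 for H3.3K36M, 0.31 and 0.25 for H3.1WT and 0.36 and 0.26 for H3.1K36M.

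Taken over all distal rows together, rows at least 2-fold above the median of their library were more frequent than over all other autosomal rows. A few ends held many of them. In H3.3WT, 1045 distal rows (28.8%) were that high, against a background of 22.8% in other rows, and in H3.3K36M 838 rows (23.1%) against 15.7%. In H3.1WT the counts were 154 rows (4.24%) against 1.9%, and in H3.1K36M 178 rows (4.90%) against 1.56%. In both H3.3 libraries together 759 distal rows (20.9%) were high, against 14.2% of other rows. Chromosomes 11 and 15 held 267 of the 759, or 35.2%. On chromosome 11, 91.6% of the distal rows were high in H3.3WT and 85.8% in H3.3K36M, and on chromosome 15 72.4% and 55.7%. On chromosome 17 the shares were 3.23% and 2.69%, and on chromosome 18 3.65% and 8.85%. In the H3.1 libraries the shares were 42.1% (H3.1WT) and 48.4% (H3.1K36M) on chromosome 11, and 19.8% and 23.4% on chromosome 15. At the other ends they were at most 7.81% in H3.1WT (chromosome 7) and 8.70% in H3.1K36M (chromosome 10). The higher H3.1 shares thus rest on few ends.

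The rows high in both H3.3 libraries formed 208 runs of touching rows, 15 of them at least 100 kb long. The longest, chr15:101770001-102310000, covered 540 kb and had means of 7.01 and 7.31 RPM in the WT and K36M H3.1 libraries and 13.1 and 11.5 RPM in the WT and K36M H3.3 libraries. The next, chr11:120260001-120770000, covered 510 kb with 8.26, 8.63, 13.3 and 12.7 RPM. In both, every library was above its genome level and H3.3 was above H3.1. Another kind of run was seen on chromosome 1, where chr1:196410001-196670000 (260 kb) had 4.12 and 3.85 RPM in the H3.1 libraries and 9.87 and 10.5 RPM in the H3.3 libraries. There the H3.1 signal was near its genome median while the H3.3 signal was more than 2-fold that of H3.1.

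High H3.3 signal at the ends of chromosomes 11 and 15 was not bounded by the 2 Mb window. In steps of 1 Mb from the end, the H3.3WT medians of chromosome 11 stayed between 6.33 and 11.3 RPM for the first 7 Mb and were 1.89 RPM in the next. They rose again to 5.58, 6.53 and 6.72 RPM in the steps from 8 to 11 Mb. H3.1WT was high over the first 7 Mb too, between 5.77 and 7.36 RPM. On chromosome 15 the H3.3WT medians stayed between 5.73 and 11.6 RPM for 6 Mb. The chromosome 2 end had 5.65 and then 5.10 RPM in its outer 2 Mb and 1.33 RPM in the next step inward. The chromosome 4 end changed inside the window: H3.3WT had a median of 5.78 RPM in the outer Mb and 1.16 RPM in the inner one, and H3.3K36M had 6.03 and 2.71 RPM.

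**Figure D2:**
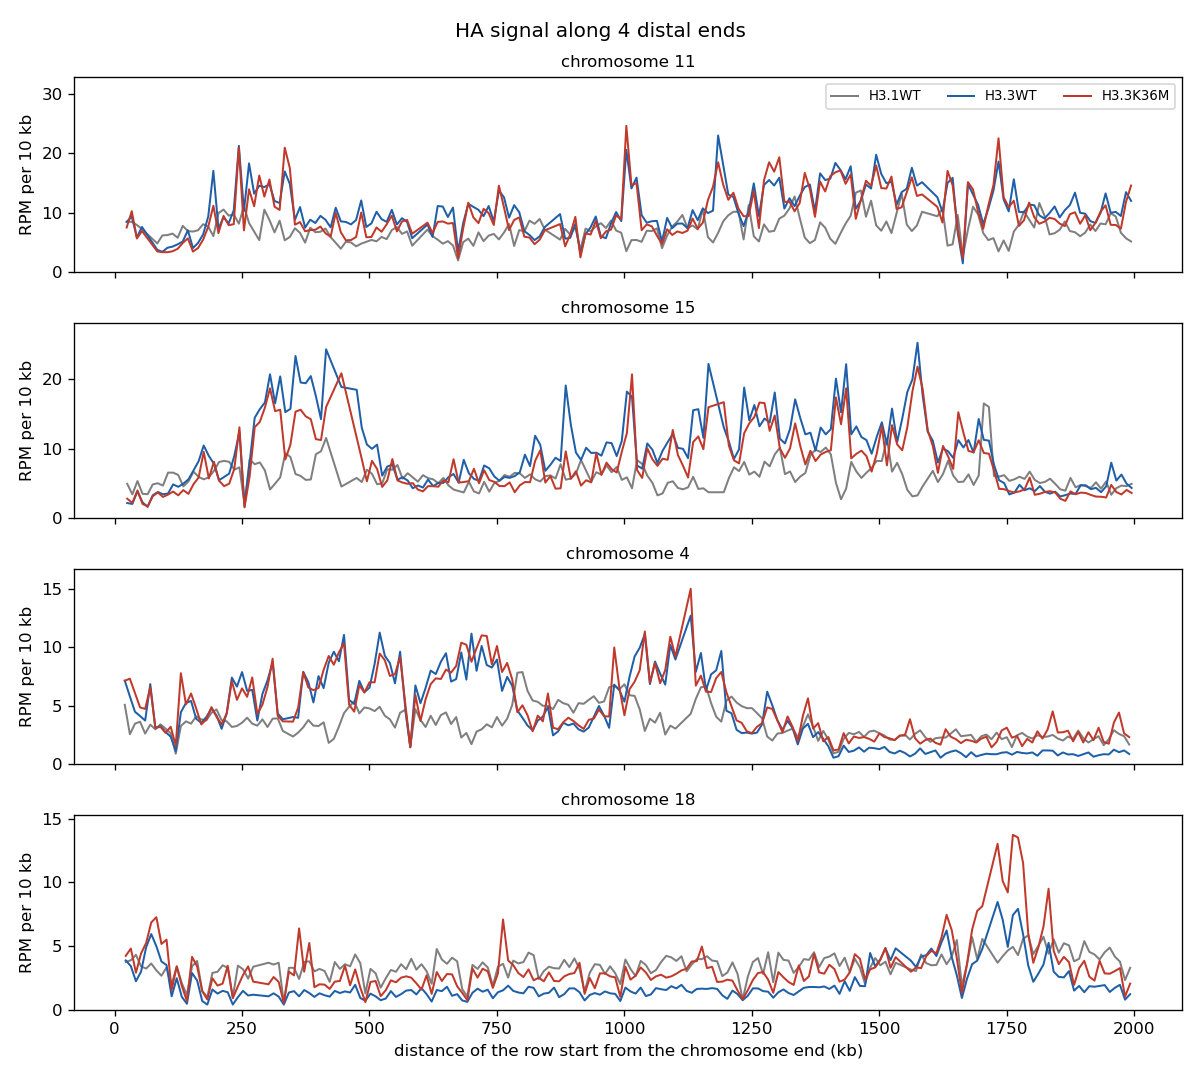
HA signal (RPM per 10 kb row) of H3.1WT, H3.3WT and H3.3K36M is drawn against the distance of each row from the chromosome end (kb) for chromosomes 11, 15, 4 and 18. The H3.3 lines run together on chromosome 11, H3.3WT is mostly the higher on chromosome 15, and beyond about 1400 kb on chromosome 4 and over most of chromosome 18 H3.3WT lies below H3.3K36M.

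By distance from the end, H3.3 signal was highest some way inside the chromosome rather than at its outermost rows. The last 300 kb had median signals of 3.62 and 3.76 RPM in the WT and K36M H3.1 libraries and 3.16 and 3.55 RPM in the WT and K36M H3.3 libraries. From 300 to 800 kb the medians were 3.79, 3.76, 4.71 and 4.38 RPM, and from 800 kb to 2 Mb they were 3.74, 3.81, 3.36 and 3.24 RPM. The H3.3 medians were highest in the middle stretch, where H3.1WT was slightly above its neighbouring stretches too. The limits of this stretch enclose the 100 kb classes with the highest H3.3 medians, so its H3.3 rank follows from the choice of limits. Between 300 and 800 kb, 12 of 19 chromosomes were above the median of other rows in H3.3WT, 14 in H3.3K36M, 12 in H3.1WT and 10 in H3.1K36M, so the count of chromosomes did not set H3.3WT apart from H3.1WT. Without chromosomes 11 and 15 the stretch still had 4.15 (H3.3WT) and 3.89 RPM (H3.3K36M).

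In classes of 100 kb, H3.3WT was highest at 700 to 800 kb (5.36 RPM, 14 chromosomes above the other rows) and lowest at 1400 to 1500 kb (2.82 RPM), 1.90-fold apart. H3.3K36M was highest at 300 to 400 kb (4.62 RPM, 13 chromosomes above) and lowest at 1600 to 1700 kb (2.93 RPM), 1.58-fold apart. The H3.1WT classes spanned 3.54 to 3.92 RPM, 1.11-fold, and the H3.1K36M classes 3.66 to 3.93 RPM, 1.07-fold. The edge of the window had no step. H3.3WT had 4.15 RPM from 1900 to 2000 kb, just inside, and 4.36 RPM from 2000 to 2100 kb, just outside, while H3.3K36M had 3.55 RPM in both. Further in, the H3.3WT median fell to 3.25 RPM at 2 to 5 Mb, 3.05 RPM at 5 to 10 Mb and 2.84 RPM beyond 10 Mb, and the H3.3K36M median to 3.34, 3.13 and then 3.004 RPM.

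**Figure D3:**
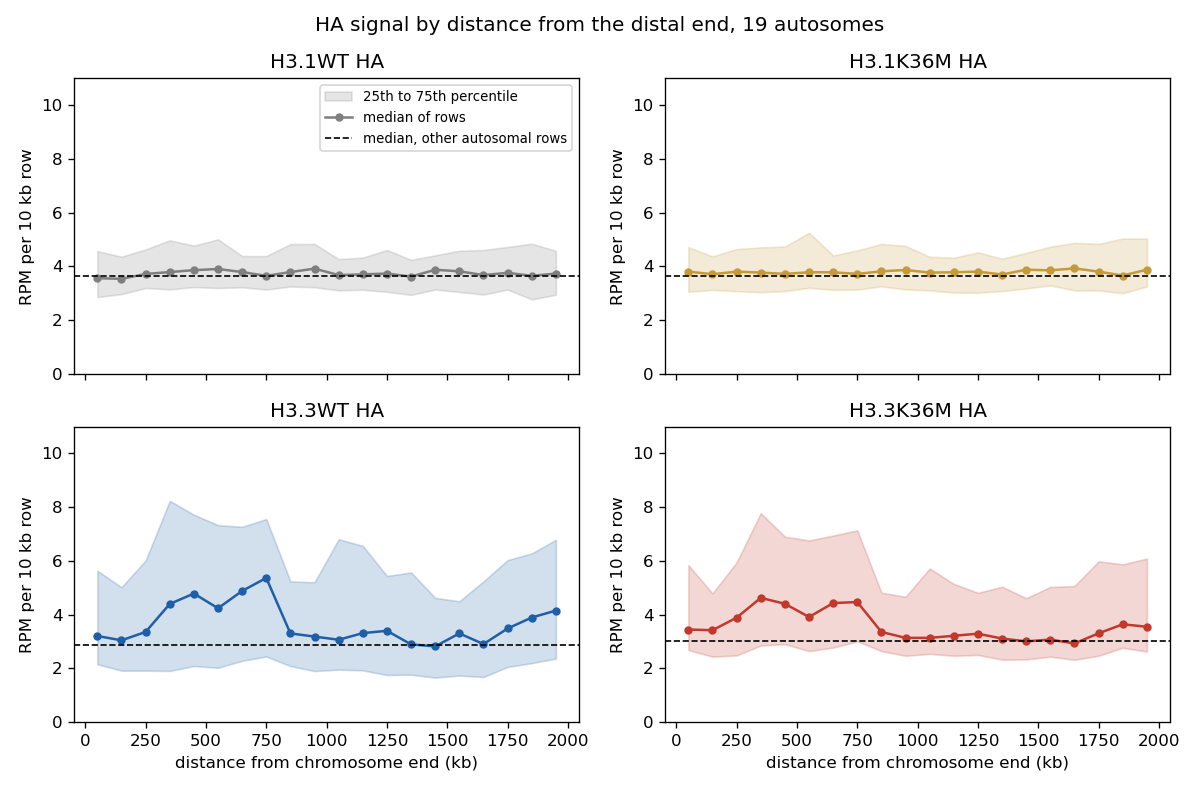
For each HA library the median RPM of distal rows (points) and its quartiles (band) are plotted in 100 kb classes of distance from the chromosome end, with the median of all other autosomal rows as a dashed line. The H3.1 medians stay near their dashed line, and the H3.3 medians rise between 300 and 800 kb, to 5.36 (H3.3WT) and 4.62 RPM (H3.3K36M). At the inner edge, 1900 to 2000 kb, H3.3WT is up again at 4.15 RPM.

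The last 10 kb row of each chromosome ended between 10.1 and 59.2 kb from the chromosome's end, with a median of 15.0 kb. Over these 19 rows H3.3WT had a lowest, median and highest value of 1.57, 3.76 and 8.43 RPM, and H3.3K36M of 1.84, 4.07 and 10.6 RPM. H3.1WT had 2.29, 3.34 and 8.43 RPM, and H3.1K36M 1.93, 3.76 and 9.30 RPM. The outermost rows thus covered much of the range of the whole ends. The last row of chromosome 3, chr3:159570001-159580000, had 2.29 and 1.93 RPM in the H3.1 libraries, each the lowest of the 19, but 7.27 RPM in H3.3WT and 10.6 RPM, the highest of the 19, with K36M. It belongs to an 80 kb run, chr3:159500001-159580000, with means of 2.15, 1.97, 8.37 and 13.5 RPM, at the tip of the end with the lowest H3.3 median. At the last row of chromosome 11 the 4 libraries were nearly level, with 8.43, 9.30, 8.43 and 7.49 RPM.

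The strongest single rows lay on chromosome 2. The row chr2:181660001-181670000, 78.1 kb from the end, had 27.6 and 28.7 RPM in the WT and K36M H3.1 libraries and 32.6 and 35.4 RPM in the WT and K36M H3.3 libraries. Its neighbour chr2:181650001-181660000 had 13.6, 16.5, 16.2 and 19.1 RPM. All 4 libraries were high at both rows. At chr15:103080001-103090000 the values were 11.5, 11.2, 24.3 and 16.0 RPM. At chr11:121600001-121610000 they were 8.12, 7.78, 21.2 and 20.95 RPM, and at chr11:120660001-120670000 6.57, 7.16, 23.0 and 18.5 RPM. At the chromosome 11 rows the H3.3 libraries were far above the H3.1 libraries, unlike at the chromosome 2 rows.

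H3.3K36M was compared with H3.3WT to ask whether the mutant variant is distributed as the wild type is. Over all distal rows the median log2 H3.3K36M/H3.3WT ratio (of RPM plus 0.1) was 0.07, against 0.10 in other rows. That difference of -0.02 is small beside the SD of 0.30 over chromosomes. The ratio of the distal end was above that of the rest of the chromosome on 7 chromosomes and below it on 12. Individual ends moved in both directions. Chromosome 18 had a distal median of 0.72, chromosome 3 of 0.57, chromosome 17 of 0.50, chromosome 16 of 0.44 and chromosome 10 of 0.41. Chromosome 8 had -0.38, chromosome 5 had -0.32 and chromosome 15 had -0.27. Of all 2 Mb windows of their chromosome, the ends of chromosomes 3 and 16 had the highest ratio (1 of 78 and 1 of 48), and the end of chromosome 18 ranked 5 of 44. The ends of chromosomes 5 and 8 ranked 71 of 75 and 61 of 62, while the chromosome 15 end, at 34 of 50, was ordinary for its chromosome. The 5 ends with the highest ratio are the 5 with the lowest H3.3WT median, and H3.3WT is the denominator of the ratio, so the 2 orders are not independent.

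In 100 kb classes the sign of the ratio was kept along nearly the whole of some ends. It was above 0 in 19 of 20 classes on each of chromosomes 3, 10, 17 and 18, and in 1 of 20 on chromosome 15 and 3 of 20 on chromosome 11. Chromosome 4 was split, near 0 in its outer Mb and up to 1.53 at 1800 to 1900 kb. Chromosome 8 reached -0.88 at 1600 to 1700 kb. Over all 380 classes 209 (55.0%) were above 0, against 58.6% of the other autosomal 100 kb windows.

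**Figure D4:**
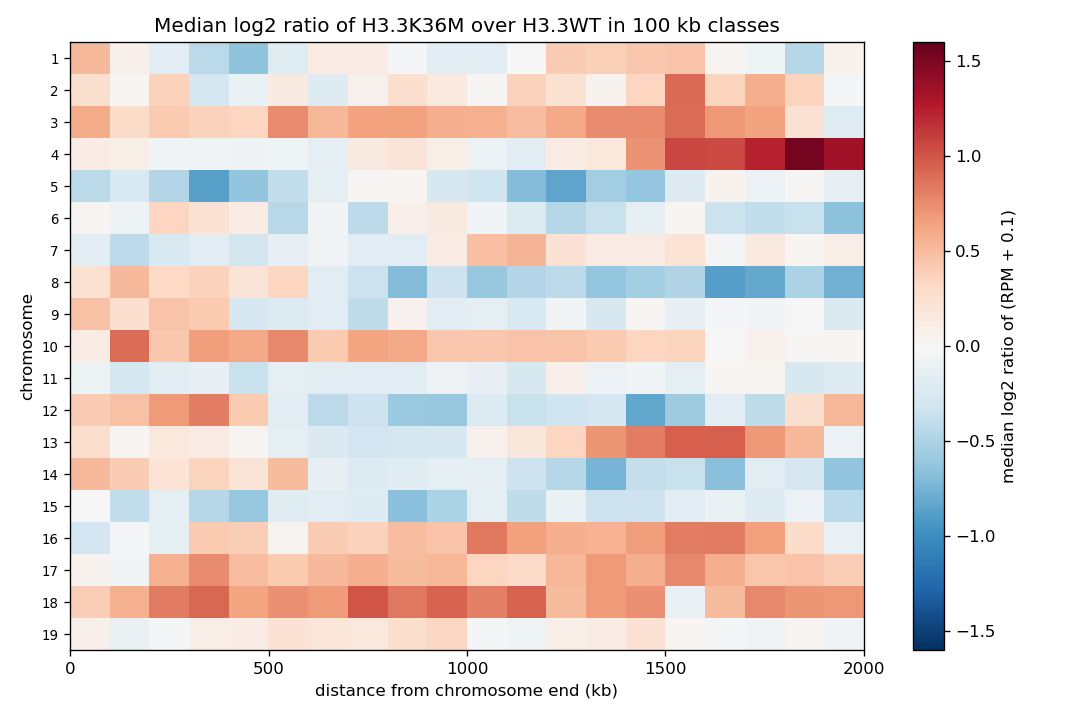
Colour gives the median log2 H3.3K36M/H3.3WT ratio in each 100 kb class of distance from the chromosome end (horizontal, kb) for chromosomes 1 to 19 (vertical). Chromosomes 3, 10, 17 and 18 are above 0 in 19 of 20 classes, chromosome 15 in 1 of 20, and the darkest classes, up to 1.53, lie at the inner side of chromosome 4.

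By single rows, 178 distal rows (4.90%) stood at least 2-fold higher in H3.3K36M, against 3.01% of other rows. Another 23 (0.633%) were at least 2-fold lower, against 1.92%. The higher rows lay on 14 chromosomes, but 117 of them (65.7%) were on chromosome 4 (40 rows), chromosome 18 (35), chromosome 3 (22) and chromosome 17 (20). The lower rows lay on 7 chromosomes, 19 of the 23 (82.6%) on chromosomes 5, 8, 12 and 15, with 10 on chromosome 5. The higher rows had low signal in H3.3WT, where their median was 1.354 RPM, with 3.20 RPM in H3.3K36M and 3.03 and 3.25 RPM in the H3.1 libraries. The lower rows had 6.15 RPM as their H3.3WT median and 2.98 RPM in H3.3K36M, with 3.06 and 3.302 RPM in the H3.1 libraries. In both groups the H3.3K36M level was therefore close to the H3.1 level and the H3.3WT level was far from it, which is a description of rows picked by the ratio itself. If the libraries are scaled so that the median ratio of all rows is 1, a shift of -0.10, 114 rows (3.14%) were higher, against 2.04% of other rows, and 51 (1.40%) lower, against 2.84%. The higher share of all such rows then went from 88.6% to 69.1%.

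The ratio also differed between classes of H3.3 level, at the ends as elsewhere. Rows were put in 5 equal classes by the mean of both H3.3 libraries. From the lowest to the highest class the median log2 ratio was 0.49, 0.39, 0.08, -0.15 and -0.11 in distal rows, and 0.34, 0.32, 0.09, -0.22 and -0.10 in other rows. The lowest class held 15.1% and the highest 26.8% of the distal rows, where other rows had close to 20.1% and 19.9%. The distal ends thus had a smaller share of rows in the lowest class, where the median ratio was highest. Their share of rows at least 2-fold higher in H3.3K36M was still above that of other rows, 4.90% against 3.01%. Both H3.3 libraries make up the classes as well as the ratio, so class and ratio are not independent.

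The longest run of higher rows was chr4:153640001-153810000 (170 kb), where the means were 2.25 and 3.36 RPM in the WT and K36M H3.1 libraries and 0.911 and 2.74 RPM in the WT and K36M H3.3 libraries, 3.01-fold (2.76 to 3.29) between the H3.3 libraries. H3.1K36M was above H3.1WT in the same run. The highest single ratio was at chr18:90410001-90420000, with 2.43, 2.58, 1.075 and 6.397 RPM, 5.95-fold (4.38 to 8.24). It was followed by chr18:90010001-90020000, with 3.62, 3.49, 1.55 and 7.10 RPM, 4.58-fold (3.53 to 6.03), and by chr3:159070001-159080000, with 3.03, 2.99, 1.505 and 5.98 RPM, 3.98-fold (3.03 to 5.27). In all 3 rows H3.3WT was under its genome-wide level of 2.86 RPM, and H3.3K36M was above both H3.1 libraries. In the other direction, chr5:152190001-152210000 had 3.18, 2.94, 7.64 and 3.11 RPM and was 2.46-fold lower in H3.3K36M (2.12 to 2.86). The row chr15:102600001-102610000 had 5.69, 6.56, 13.5 and 5.65 RPM, 2.38-fold lower (2.04 to 2.79), and chr5:151330001-151340000 was 2.39-fold lower (1.84 to 3.12). No lower run was longer than 20 kb, a length that 5 of them reached. Of the 178 higher rows 33 (18.5%) lay in runs of at least 50 kb, which include the 170 kb run on chromosome 4. Of the lower rows, only 23 in all, 0% did. The same shares over other autosomal rows are not given. Regions picked as extremes of the same reads have folds that are biased upward, which the intervals do not reflect.

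At the last row of each chromosome the interval of the H3.3K36M over H3.3WT ratio lay above 1 on 5 of 19 chromosomes and below 1 on 1. Of the other autosomal 10 kb rows 27.2% lay above 1 and 21.4% below, and of all distal rows 30.1% and 22.4%, so 5 of 19 is near the background. The largest was chromosome 9, chr9:124050001-124060000, with 2.13 RPM in H3.3WT against 4.58 RPM in the mutant, 2.15-fold (1.68 to 2.78). The row below 1 was chr5:152510001-152520000, with 6.02 and 3.24 RPM. In 100 kb windows, which hold more reads, the interval lay above 1 in 176 of 380 (46.3%), against 50.9% of other autosomal windows, and below 1 in 135 (35.5%), against 33%. Of these windows 8 (2.11%) passed 2-fold upward, against 0.989%, and 0 downward, against 1.1%. At the centromere end the first 2 Mb had 1.36% of rows at least 2-fold higher and 0.194% lower.

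The H3.1 libraries were close to each other at the distal ends. The median log2 ratio of H3.1K36M over H3.1WT was 0.03 in distal rows and 0.00 in other rows, with an SD of 0.10 over chromosomes. The distal end was above the rest on 10 chromosomes and below it on 9. The highest ends were chromosome 2 at 0.26, chromosome 4 at 0.18 and chromosome 16 at 0.17, and the lowest was chromosome 6 at -0.11. A single distal row (0.0275%) was at least 2-fold higher, against 0.0119% of other rows, and 0 were lower, against 0.0648%. That row, chr4:153640001-153650000, had 1.67 (H3.1WT) and 3.45 RPM (H3.1K36M), 2.06-fold (1.51 to 2.84), and it is the innermost row of the chromosome 4 run in which H3.3K36M exceeded H3.3WT. Among rows of higher signal, chr2:180740001-180750000 had 3.93 and 7.06 RPM, 1.80-fold (1.46 to 2.21), while its H3.3 values were 4.88 and 5.15 RPM. In the other direction, chr1:196730001-196740000 had 5.80 and 3.74 RPM, 1.55-fold lower (1.26 to 1.93), with 11.01 and 9.43 RPM in the H3.3 libraries.

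H3.3 was set against H3.1 to ask where the variants part. In the WT lines the median log2 ratio of H3.3WT over H3.1WT was -0.17 in distal rows and -0.41 in other rows, a difference of 0.24 with an SD of 0.44 over chromosomes. The distal end was above the rest on 14 chromosomes and below it on 5. In the K36M lines the ratio of H3.3K36M over H3.1K36M was -0.18 in distal rows and -0.30 in other rows, above the rest on 15 chromosomes and below it on 4, with an SD of 0.18. Both pairs of lines thus had relatively more H3.3 at most distal ends than on the rest of the chromosome. The first 2 Mb with signal at the centromere end had medians of -0.33 (WT pair) and -0.22 (K36M pair). These lay between the distal and the other rows, so a higher ratio was not particular to the distal ends. Among rows of at least median total signal the differences were 0.03 in the WT pair and 0.08 in the K36M pair, with rows picked by a mean that includes the compared values. The ends of chromosomes 3, 10, 16, 17 and 18 were the exceptions in the WT pair.

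The WT ratio ran from -1.10 on chromosome 18 to 0.52 on chromosome 15 and 0.49 on chromosome 11, and the K36M ratio from -0.55 on chromosome 16 to 0.25 on chromosome 11. Over the 19 ends the 2 ratios had a Pearson correlation of 0.75 and a Spearman correlation of 0.77, given as a description of ends that share base composition and mappability between libraries. The ends of chromosomes 3, 17 and 18 had WT ratios of -0.86, -0.91 and -1.10 and K36M ratios of -0.22, -0.40 and -0.21. Those of chromosomes 3 and 18 were thus low in H3.3 mainly in the WT pair. The chromosome 17 end was below the rest of its chromosome in the K36M pair too, where the rest had -0.25. The range of the K36M ratio over the ends was narrower, with an SD of window medians of 0.21 against 0.50 in the WT pair. Over the other 2 Mb windows the SDs were 0.24 and 0.49, so the narrower range was not particular to the ends.

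**Figure D5:**
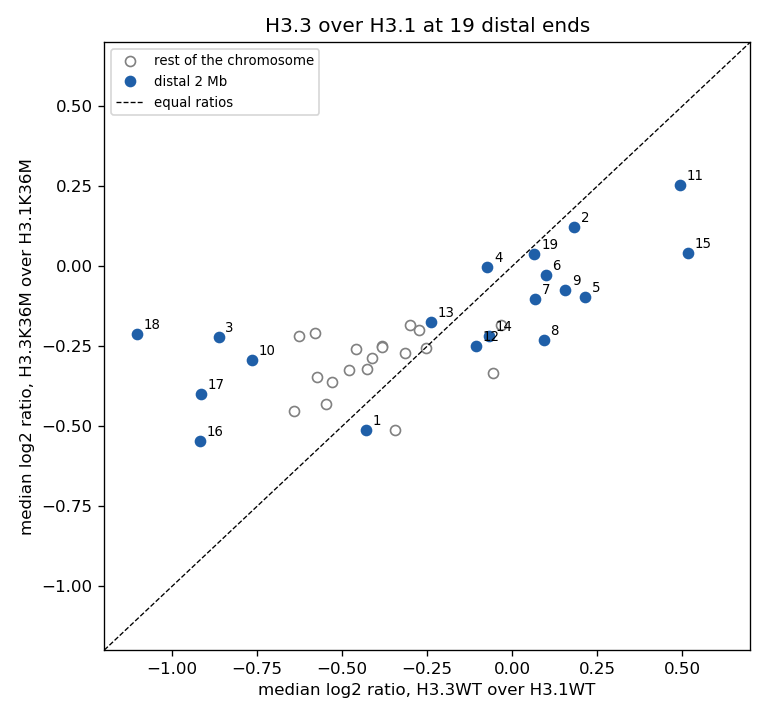
Each filled point is 1 distal end, numbered by chromosome, and each open point the rest of a chromosome, with the median log2 ratio of H3.3WT over H3.1WT on the horizontal axis and of H3.3K36M over H3.1K36M on the vertical axis. The ends spread from -1.10 (chromosome 18) to 0.52 (chromosome 15) horizontally but only from -0.55 to 0.25 vertically, and the 5 ends at the far left lie above the dashed line of equal ratios.

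By row, 468 distal rows (12.9%) stood at least 2-fold higher in H3.3WT than in H3.1WT, against 10.8% of other rows, and 544 (15.0%) at least 2-fold lower, against 17%. Scaled by the median ratio, a shift of 0.40, the counts were 861 higher and 76 lower (23.7% and 2.09%, against 20.1% and 1.76% of other rows), so the split went from 46.2% to 91.9% higher. In the K36M pair 384 rows (10.6%) were higher, against 8.45%, and 74 (2.04%) lower, against 3.32%. Scaled by a shift of 0.30, 596 were higher (16.4%, against 13.1% of other rows) and 4 lower (0.110%, against 0.350%), so 99.3% in place of 83.8% were higher. Whether a row counts as poor or rich in H3.3 therefore depends on the scaling, while the distal share of higher rows exceeded the background under both. Unscaled, the first 2 Mb at the centromere end had 12.1% (WT pair) and 10.5% (K36M pair) higher rows, near the distal shares. Lower rows there were 14.4% and 3.88%.

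Of the rows higher in H3.3WT than in H3.1WT, 21.2% belonged to runs 50 kb or longer, up to 80 kb, with no share over other rows given. The regions that follow were picked as extremes of the ratio. The row chr5:151260001-151270000 had 1.44 and 2.51 RPM in the WT and K36M H3.1 libraries and 10.6 and 4.90 RPM in the WT and K36M H3.3 libraries, 7.33-fold (5.48 to 9.97) in the WT pair. The 30 kb region chr15:102060001-102090000 had 4.00, 4.31, 19.2 and 16.5 RPM, 4.79-fold (4.32 to 5.32). Of these, the chromosome 15 region kept a similar level in H3.3K36M and the chromosome 5 row did not. In the K36M pair chr19:60830001-60870000 (40 kb) had 3.06, 2.21, 13.5 and 16.9 RPM, 7.65-fold (6.86 to 8.57). The region chr13:119920001-119940000 had 2.14, 1.65, 8.79 and 12.3 RPM, 7.48-fold (6.25 to 9.01), and chr10:128350001-128360000 had 2.49, 3.04, 16.7 and 22.1 RPM, 7.29-fold (6.05 to 8.87). At these 3 regions H3.3 was high in both H3.3 libraries. One of the 2 longest runs low in H3.3 was chr18:90130001-90280000 (150 kb), with 3.20, 3.09, 1.25 and 2.15 RPM, 2.55-fold lower in H3.3WT than in H3.1WT (2.35 to 2.77). Rows low in H3.3WT against H3.1WT at ordinary total signal were chr1:195540001-195550000, 2.68-fold lower (2.07 to 3.49), chr9:123880001-123890000, 2.48-fold (1.92 to 3.22), and chr16:96460001-96470000, 2.42-fold (1.88 to 3.15).

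The authors' peak lists, which give positions only, place 164 of the 8218 autosomal H3.3K36M peaks in the distal 2 Mb. That is 4.33 per Mb, against 3.42 per Mb elsewhere, 1.27-fold. Distal peaks were longer, with a median of 2.5 kb against 2.0 kb, and 30 of them (18.3%) were at least 10 kb long, against 6.66% elsewhere. They covered 2.78% of the distal sequence and 1.28% of the rest. Chromosome 11 gave 335.6 kb and chromosome 15 286.0 kb of the 1053.8 kb covered, so the higher coverage also leans on few ends. A peak was present in 226 distal rows (6.22%), against 4.41% of other rows. The ends differed widely: chromosome 11 had 28 peaks, chromosome 15 had 27 and chromosome 19 had 23, together 47.6% of the 164. Density was higher at the distal end than on the rest of the autosome for 8 chromosomes and lower for 11. Without chromosomes 7, 11, 15 and 19 the density ratio was 0.862, so the higher density rests on a few ends.

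Distal rows with an H3.3K36M peak had medians of 4.46 and 4.49 RPM in the WT and K36M H3.1 libraries and 10.5 and 11.2 RPM in the WT and K36M H3.3 libraries, against 3.88, 3.76, 8.88 and 9.43 RPM in other peak rows. Signal in H3.3WT was thus high in rows chosen in H3.3K36M. The longest distal peak, chr11:119800401-119860200 (59.8 kb), had 6.01, 6.29, 15.0 and 16.5 RPM. The peak chr15:102300201-102343000 (42.8 kb) had 3.90, 3.47, 15.6 and 14.2 RPM, and chr15:101906601-101940800 (34.2 kb) had 4.13, 3.59, 18.7 and 16.9 RPM. At chr11:120818801-120854400 (35.6 kb) the values were 5.17, 5.66, 13.7 and 14.0 RPM. At chr2:179938601-179975800 (37.2 kb) they were 4.74, 6.84, 8.71 and 14.8 RPM, with both K36M libraries above their WT library.

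The chromosome 7 end held 0 listed peaks although its H3.3 signal was high. The last listed peak on chromosome 7 lies 8.03 Mb from the end. Past it, 34 of 766 rows had at least the median H3.3K36M signal of peak rows, up to 13.7 RPM. Genome-wide, 44.2% of rows at that level held a peak, and at the distal ends 152 of 317 (47.9%). Last peaks were also far from the end on chromosome 18 (1.70 Mb), chromosome 14 (1.26 Mb), chromosome 12 (1.20 Mb) and chromosome 10 (1.10 Mb), but chromosomes 10 and 18 had 0 rows of that level beyond them. Why the list stops early on chromosome 7 was not tested.

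Of the 73 autosomal H3.1K36M peaks, 4 were distal, all on chromosome 15, a density of 0.106 per Mb against 0.0293 per Mb elsewhere, where 0.0344% of rows held such a peak. The peaks chr15:101779401-101783400 and chr15:101786001-101799200 lie side by side. The second (13.2 kb) had 16.3 and 16.2 RPM in the WT and K36M H3.1 libraries and 11.2 and 9.32 RPM in the WT and K36M H3.3 libraries, so H3.1WT was as high there as the mutant and both were above H3.3. The peak chr15:103081801-103084800 overlapped an H3.3K36M peak and lay in the strong chromosome 15 row with 24.3 RPM in H3.3WT. The last, chr15:103105201-103106800, had 9.20, 9.59, 17.6 and 11.4 RPM. With 4 peaks on 1 chromosome, the density is a statement about the chromosome 15 end.

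Rows resembled each other between libraries in the same way at the ends as elsewhere. Across distal rows the correlation of log2 signal was 0.902 between the H3.1 libraries and 0.872 between the H3.3 libraries, and 0.532 to 0.554 between an H3.1 and an H3.3 library. In other rows the values were 0.883, 0.859 and 0.483 to 0.516. Rows share depth, mappability and neighbours, so these are descriptions.

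For orientation, the gene order next to each end was read from RefSeq's annotation of another build, GRCm38.p6, which gives names and neighbours but was not used to place a gene on a row. The outermost genes of chromosome 11, whose end was the richest in H3.3, include Foxk2, a forkhead transcription factor, Tbcd, a tubulin-folding cofactor, and Metrnl, a secreted factor. Those of chromosome 15 include Nfe2, a transcription factor of blood cells, Itga5, the alpha subunit of a fibronectin receptor, and Pde1b, a cyclic-nucleotide phosphodiesterase. At the H3.3-poor end of chromosome 17 lie Lhcgr and Fshr, the receptors for luteinizing and follicle-stimulating hormone. The chromosome 10 end holds clustered olfactory (Olfr) and vomeronasal (Vmn2r) receptor genes, and the chromosome 16 end Dscam, a neural adhesion molecule. Expression was not measured in these files, and which of these genes lie in the rows described was not analysed here.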

How the data were processed

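Each of 4 C3H10T1/2 lines gave 1 HA ChIP-seq library, and groups follow the genotype and description labels. Both H3.3 samples have titles that start with H3.1, and a protocol text names a Cbx2 antibody where the descriptions name HA. Alignment used Bowtie 1.0.0 on mm9, per the submitters' processing notes, while the labels do not name the binning, duplicate handling or peak caller. The files deposited by the authors hold RPM per genomic row for the 4 HA libraries, and peak positions with no score. The RPM values were whole multiples of 0.0283 and 0.0241 in the WT and K36M H3.1 libraries and of 0.0215 and 0.0259 in the H3.3 libraries, from which reads were recovered, and the columns summed to 0.429% to 0.512% above the nominal total.

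Rows wider than 10 kb are sums and were left out, 81 of them in the distal windows, of which 19 touch the chromosome end. Rows needed a mean of 0.5 RPM. Ratios are log2 of RPM plus 0.1, which understates change in low rows. At least 2-fold is a rule of size, not a test. The SD over chromosomes describes spread along the genome and not replicate error. Coordinates are 1-based mm9. Without molecular identifiers, reads may repeat a molecule.

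Named regions were the last row of each chromosome, the 3 highest and 3 lowest merged regions of each comparison with at least median signal, the 5 strongest rows, the 5 longest H3.3K36M peaks and all H3.1K36M peaks. Chromosomes were named as the 3 highest and lowest by a median. The longest runs, other ends and H3.3-poor ends were named after their values were seen. The members and rules were chosen with earlier results of these data known. No mm9 genome was used here, so no sequence or gene annotation is given for a row. The calculation of ratios and intervals was tested on simulated reads. Alternatives were other end windows, filters, pseudocounts, scaling, 100 kb windows and each chromosome left out. Software was scipy 1.17.1, pandas 2.3.3 and numpy 2.4.6 under Python 3.11.15, with matplotlib 3.10.9 for plots.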

Additional observations from a re-analysis of the deposited data

How the results depend on the processing

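No paired analysis was possible because each line has 1 HA library. Of 518 values recomputed under an alternative, 486 stayed within the spread used (the SD over chromosomes, or 1.5 times for shares and densities). Another 30 moved further, and 2, both of the H3.1K36M peak density ratio, also went from above 1 to 0. Every difference of medians was smaller than its SD over chromosomes, so none of them could count as reversed. The H3.3WT level difference of 0.06 under the median filter, against 0.31, counted as within the spread. So did the H3.3K36M peak density ratio of 0.862 without chromosomes 7, 11, 15 and 19, against 1.27. The distal minus other difference of H3.3K36M over H3.3WT, -0.02 on the log2 scale, ran from -0.05 to 0.00 when each chromosome was left out in turn, so it has no stable sign.

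The shares of distal rows at least 2-fold apart depended on low rows and on scaling. With a filter at the median signal the H3.3K36M over H3.3WT share of higher rows was 1.94%. The same filter gave 21.4% higher and 2.46% lower for H3.3WT over H3.1WT, and 17.7% and 0.711% for H3.3K36M over H3.1K36M. With a pseudocount of 1 RPM, H3.3K36M over H3.3WT had 1.27% higher and 0.138% lower, H3.3WT over H3.1WT 1.96% lower and H3.3K36M over H3.1K36M 0.110% lower. Scaled by the median of row ratios, H3.3K36M over H3.3WT had 3.14% higher and 1.40% lower. That scaling gave H3.3WT over H3.1WT 23.7% and 2.09%, and H3.3K36M over H3.1K36M 16.4% and 0.110%. In 100 kb windows the shares were 2.11% and 0% for H3.3K36M over H3.3WT, 6.32% higher for H3.3WT over H3.1WT, and 5.0% and 0% for H3.3K36M over H3.1K36M. A 5 Mb end window gave 3.27% lower for H3.3K36M over H3.1K36M.

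The single H3.1K36M over H3.1WT row gave 0% under a 1 Mb window, the median filter, the pseudocount of 1 RPM, scaling and 100 kb windows, and 0% to 0.0291% with a chromosome left out (0% without chromosome 4). The H3.3K36M over H3.3WT share of lower rows ran from 0.378% (without chromosome 5) to 0.669%. The H3.1K36M peak density ratio, 3.61, was 6.91 for the longer 50% of the list, 5.77 in 5 Mb windows, 0 without chromosomes 7, 11, 15 and 19 (chosen after seeing the data), and 0 (without chromosome 15) to 4.39 with a chromosome left out. The H3.3K36M density ratio ran from 1.12 (without chromosome 11) to 1.34. Depth allowed about 132 to 165 reads per distal row, so single rows carry wide intervals.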
